A study of Mus musculus with 26 samples.

Results

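Striatum of CHL2 knock-in mice was compared with striatum of wild-type mice at 1 year of age. CHL2 is a mouse line in which the mouse's own huntingtin gene carries an expanded CAG repeat, the mutation that causes Huntington's disease. The genes described are all rows of the authors' 1-year table whose FPKM averages 0.5 or more over the 2 groups, without microRNA and small nucleolar RNA rows. FPKM is a count of fragments scaled to transcript length and to the mapped fragments of a library. Of 14402 rows, 35 small RNA rows and 71 low rows were left out and 14296 genes were kept. The comparison rests on 6 of the series' 26 libraries, 3 per group.

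All groups of the series are RNA from mouse striatum, and the labels name the CHL2 and R6/1 models. Other comparisons of the series are used below only to set values side by side. One is R6/1 against wild type at 8 weeks, with 3 libraries each, and the other is R6/1 against wild type at 10 weeks after injection of a control adeno-associated virus (AAV), with 2 libraries each. The R6/1 transgene is exon 1 of human huntingtin with a long CAG repeat, so R6/1 mice differ from CHL2 in the construct, in age and in the wild types they were set against. The sources used here do not give sex, strain background, the copies of the CHL2 allele or whether libraries come from separate animals.

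Most neurons of the striatum are spiny projection neurons, which use GABA and divide into a direct pathway carrying dopamine D1 receptors and an indirect pathway carrying dopamine D2 and adenosine receptors. Expanded huntingtin is known for lowering the transcripts that give these neurons their identity, among them receptors, phosphodiesterases and opioid peptides, long before many of the cells are lost. The hypothalamus, septum, cortex and white matter lie next to the striatum in the brain and have marker genes of their own.

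The authors deposited 1 pooled FPKM per gene and group, so each gene has 2 values here and no spread between libraries. The change of a gene is log2 of the ratio of CHL2 to wild-type FPKM after adding 1 to both, which understates the change of low genes. A gene is said to have risen, fallen or been called where its q, a p-value adjusted over the rows of the table, was below 0.05 in the authors' deposited table. With libraries not stated to be separate animals, the spread behind those p-values is that of these libraries and may be technical. In bulk tissue, fewer cells of a type and less RNA per cell cannot be told apart.

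The authors' deposited table called 523 of the 14296 genes (3.66%), 240 higher in CHL2 (1.68%) and 283 lower (1.98%). The q values of these calls ran from 0.00303, held by 238 genes, to 0.0494, and the nearest gene that missed had a q of 0.0502 in the authors' deposited table. Values over all genes were balanced, with 7225 higher and 7071 lower, a median change of 0.0021 and quartiles of -0.11 and 0.11. Called changes were mostly moderate: the median was 0.47 among the genes that rose and -0.52 among those that fell. Only 21 called genes changed by at least 1, 8 of them upward and 13 downward. The genes at the edge of the expression minimum were Echdc3, at a mean FPKM of 0.503, and Tnfaip2, at 0.499.

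Direction followed expression level. Among the 641 genes at a mean FPKM of 100 or more, 52 fell and 5 rose, whereas among genes between 0.5 and 2 FPKM 15 fell and 30 rose. Called genes that fell had a median level of 24.8 FPKM and those that rose 7.46, against 10.9 for all genes. The abundant genes that fell were led by Pcp4, a calmodulin-binding protein of projection neurons, at 1330.1 FPKM in wild type and 733.9 in CHL2.

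**Figure D1:**
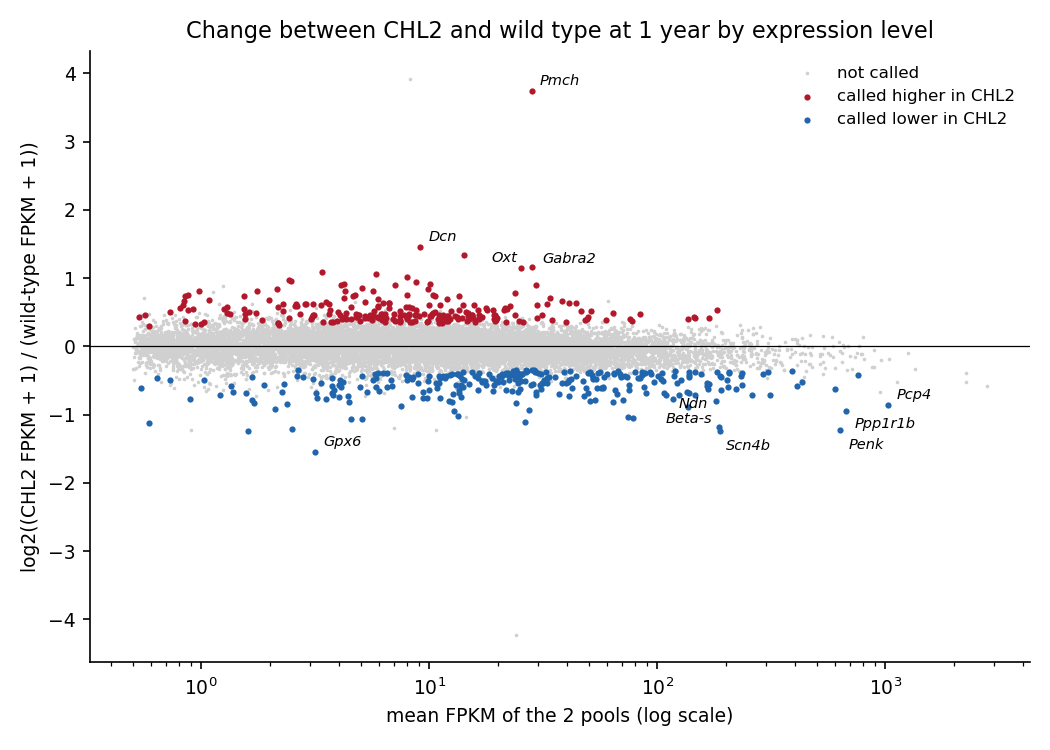
Change between CHL2 and wild type, as log2 of the ratio of FPKM with 1 added, against the mean FPKM of the 2 pools on a log scale, for 14296 genes. Red points (240) were called higher and blue points (283) lower in the authors' deposited table, and above 100 FPKM 52 of 57 called genes lie below 0.

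The genes that the labels and the disease point to first were not called. Htt, the targeted gene (chromosome 5, mm9 35104388 to 35255170), read 18.4 FPKM in wild type and 18.8 in CHL2 (q = 0.973 in the authors' deposited table). A repeat expansion leaves the gene's other exons in place, so this level does not check the genotype labels. Elk1, the ETS-family transcription factor named in the series title, read 20.4 and 20.7 (q = 0.987 in the authors' deposited table). Gfap, the filament protein of reactive astrocytes, read 82.2 and 88.5, with a q of 0.816 in the authors' deposited table.

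The labelled tissue showed its defining markers in both pools. All 9 markers of striatal projection neurons were present, and their summed level was 2828 FPKM in wild type and 1485 in CHL2. Astrocyte markers summed to 350.2 and 365.2, microglial markers to 153.8 and 135.04, endothelial markers to 40.2 and 35.5 and cortical excitatory neuron markers to 183.6 and 189.4, with no marker of these types called. Oligodendrocyte markers summed to 4416 and 3011, with 2 of 6 called. Hypothalamic markers, 6 of 8 in the table, went from a sum of 59.1 to 150.9 with 3 called, and those of meningeal fibroblasts from 7.95 to 19.1 with 1 of 5 called. Septal and basal forebrain markers went from 16.05 to 24.5, with 2 of 4 called, and thalamic markers from 28.4 to 34.6, with 1 of 4 called. The sum of choroid plexus markers went from 1370 to 960.2, with none of 6 called. Most of that sum was 1 marker, as the highest single value was 1334 in wild type and 926.04 in CHL2. In the longer choroid plexus and ependymal list 8 of 19 values were higher and 11 lower. Of 4 pituitary markers 2 were in the table, at a sum of 2.998 and 3.07, with 1 called. The 3 blood markers summed to 59.6 and 26.9, with 2 called.

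Genes of projection neurons had more calls lower than any other of the 78 gene lists used here. The lists differ in size and were chosen with earlier results of these data known, so this ranking is a description and no test. Of 40 genes shared by both pathways, 24 fell and none rose, and their median change was -0.48 beside 0.0021 for all genes. Scn4b, an auxiliary sodium channel subunit, had the largest change of the list (-1.24), from 265.3 FPKM to 111.6. Lrrc10b, a leucine-rich repeat protein, read 100.8 and 48.5. Ppp1r1b, which encodes DARPP-32, the protein phosphatase regulator that integrates dopamine signals, read 884.6 and 458.2. Rgs9, a regulator of G protein signalling, read 176.8 and 95.3. The other 16 members were not called, and 2 of the 40 had higher values in CHL2. Its median transcript length is 4298.5 bases, against 3409 for all genes, and after subtracting the median change of genes of like length its median was -0.50.

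Both output pathways held genes that fell. In the indirect pathway list 5 of 10 genes fell, by changes from -0.70 to -1.23, and none rose. Penk, encoding the enkephalin precursor, had 887.1 FPKM in wild type and 378.04 in CHL2 (change -1.23). Adora2a, the adenosine receptor of this pathway, had 106.1 and 50.5, Gpr6, an orphan receptor, 36.2 and 18.5, and Drd2, the dopamine D2 receptor, 82.5 and 50.5. In the direct pathway list 5 of 11 genes fell, by changes from -0.48 to -0.68, and none rose. Drd1a, the dopamine D1 receptor, had 61.2 and 37.7, and Chrm4, the muscarinic M4 receptor, 37.97 and 26.03. Tac1, the substance P precursor, had 236.6 and 167.4, and Pdyn, the dynorphin precursor, 61.3 and 43.6. The median change was -0.64 over the indirect list and -0.04 over the direct list, and the difference between the lists was not tested. With 5 added to the FPKM in place of 1 the indirect median was -0.40.

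Second-messenger genes that serve these receptors fell in part. Of 33 genes of dopamine and cyclic AMP signalling 8 fell and 2 rose. Adcy5, the main adenylyl cyclase of the striatum, read 203.5 FPKM and 131.2, whereas Adcy8, a calcium-stimulated cyclase, rose from 4.45 to 6.295 and Adcy6 from 9.94 to 12.9. Of 19 phosphodiesterases, which break down cyclic nucleotides, 4 fell and 1 rose: Pde10a had 147.6 and 85.7 and Pde1b 389.1 and 236.1, while Pde11a rose from 1.15 to 1.97. Of 18 regulators of G protein signalling 4 fell and none rose, Rgs4 at 197.05 and 131.7 among them. Calcium-handling genes split, with 4 of 43 lower and 5 higher. Hpca, a neuronal calcium sensor, had 735.1 and 473.7, while its relative Hpcal1 rose from 52.8 to 74.6 and Calb2, encoding calretinin, from 25.6 to 42.4.

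Transcription factors of the striatum gave fewer calls. Of 37 listed factors 5 fell and 1 rose, with a median change of -0.13. Mafa, a basic leucine zipper factor, fell from 2.65 FPKM to 0.545. Rarb and Rxrg, the retinoic acid receptor beta and its partner retinoid X receptor gamma, had 37.3 and 26.1, and 47.8 and 33.1. With Rbp4, a retinol carrier (17.2 and 8.48), and Aldh1a1, a retinoic acid-forming enzyme (23.9 and 17.2), they made 4 of 18 retinoid genes that fell, with none that rose. Meis2, the most abundant factor of the striatal list, had 89.5 and 71.2 and was not called (q = 0.109 in the authors' deposited table).

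**Figure D2:**
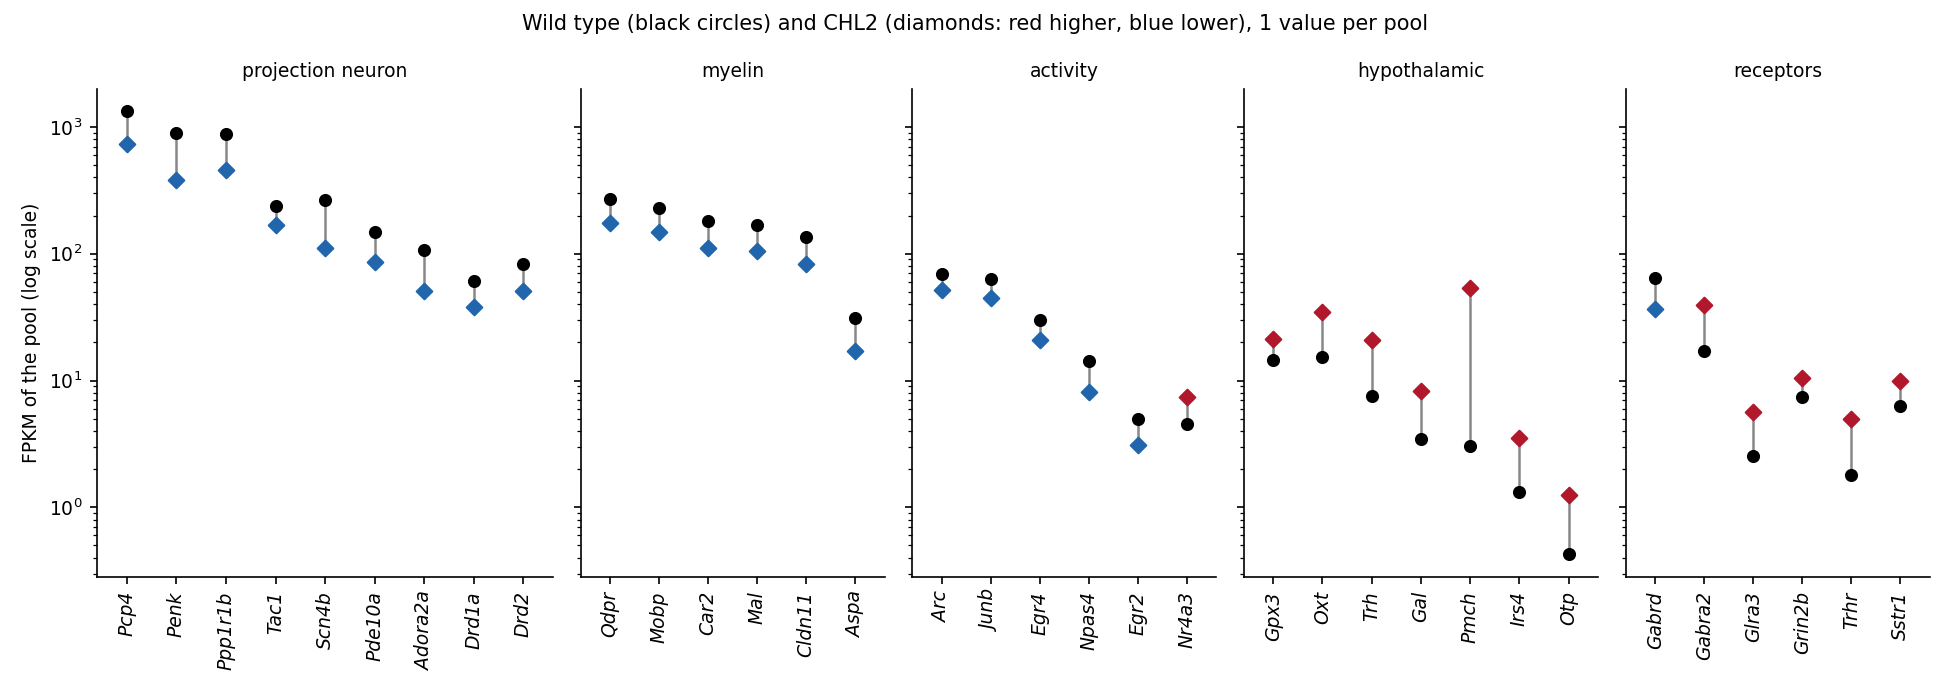
FPKM of the wild-type pool (black circles) and the CHL2 pool (diamonds) on a log scale for called genes of 5 groups, with 1 value per pool and no error. All projection neuron and myelin genes shown lie lower in CHL2, Pmch rises from 3.07 to 53.2, and Gabrd and Nr4a3 go against the others of their panels.

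Activity-induced genes, which neurons switch on within minutes of firing, were lower in several cases. Of 38 genes 9 fell and 1 rose, and the median change was -0.23. The regulatory sequence just upstream of 4 of them is shown because the series asks about Elk-1, which acts with the serum response factor at CArG boxes, while the cyclic AMP response element (CRE) serves the parallel CREB pathway. The promoter of Pmch, the called gene with the largest rise, is shown for contrast. Each run holds the 250 bases before the RefSeq transcription start on GRCm38.p6, 5′ to 3′ on the strand of the gene, with motif matches in capitals. Motifs were the CRE (TGACGTCA), its half-site (TGACG), the CArG box, an ETS site (CCGGAAG) and the TATA box (TATAAA), searched on both strands, and every CRE also holds half-sites. For Egr2, with 5 starts in the table, the start with the most matches is shown.
Npas4: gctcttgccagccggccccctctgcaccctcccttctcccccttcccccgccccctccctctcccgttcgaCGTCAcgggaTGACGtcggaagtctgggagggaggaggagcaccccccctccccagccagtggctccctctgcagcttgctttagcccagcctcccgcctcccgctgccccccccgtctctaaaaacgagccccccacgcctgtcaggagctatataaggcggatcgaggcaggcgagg
Egr2: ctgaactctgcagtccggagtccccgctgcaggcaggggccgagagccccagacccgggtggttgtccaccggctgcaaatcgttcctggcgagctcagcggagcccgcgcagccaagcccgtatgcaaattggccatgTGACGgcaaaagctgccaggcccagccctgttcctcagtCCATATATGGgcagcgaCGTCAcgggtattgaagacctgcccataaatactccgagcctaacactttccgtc
Dusp1: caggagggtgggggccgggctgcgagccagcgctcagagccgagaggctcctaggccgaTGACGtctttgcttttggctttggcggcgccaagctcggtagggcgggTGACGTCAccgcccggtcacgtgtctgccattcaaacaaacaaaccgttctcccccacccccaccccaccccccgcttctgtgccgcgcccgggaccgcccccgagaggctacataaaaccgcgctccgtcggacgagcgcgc
Nr4a3: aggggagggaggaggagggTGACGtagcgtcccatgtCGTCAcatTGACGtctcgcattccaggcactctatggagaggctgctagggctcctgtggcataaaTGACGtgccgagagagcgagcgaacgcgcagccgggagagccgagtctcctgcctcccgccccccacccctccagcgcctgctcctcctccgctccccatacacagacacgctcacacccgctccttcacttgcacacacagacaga
Pmch: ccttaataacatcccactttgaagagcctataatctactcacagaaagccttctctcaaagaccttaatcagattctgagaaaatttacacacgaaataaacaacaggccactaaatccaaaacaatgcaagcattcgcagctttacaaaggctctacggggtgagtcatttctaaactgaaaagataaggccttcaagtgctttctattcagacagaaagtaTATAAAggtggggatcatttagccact

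These windows lie at chr19:4989972-4990221 for Npas4 (minus strand), chr10:67537619-67537868 for Egr2 (plus strand), chr17:26508473-26508722 for Dusp1 (minus strand), chr4:48045055-48045304 for Nr4a3 (plus strand) and chr10:88090822-88091071 for Pmch (plus strand). The full CRE stands in Dusp1, 143 to 136 bases before the start, and in 1.55% of all 32851 promoters of the table. Half-sites stand in the 4 activity-induced windows, 4 of them in Nr4a3, and in 17.8% of all promoters. The genes shown were picked by name among those called. The shares therefore do not show that a motif is more common in activity-induced genes. The CArG box stands in Egr2, 72 to 63 bases before the start, and in 1.47% of all promoters. The ETS letters, found in 6.91% of all promoters, are in none of these 5 windows. The Pmch window holds the TATA box 27 to 22 bases before the start, as do 12.4% of promoters at any place in the window. A match describes letters and is no evidence of binding. Promoters were found for 79.01% of the genes, so no share over the called genes is given.

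Npas4, a transcription factor induced by calcium entry, fell from 14.2 FPKM to 8.05 (change -0.75). Egr2, a zinc finger factor, fell from 4.998 to 3.09 (-0.55), and Egr4, of the same family, from 29.8 to 20.8 (-0.50). Junb, a component of the AP-1 factor, had 62.7 and 44.8, and Dusp1, a phosphatase that switches off MAP kinases, had 24.3 and 17.8. Arc, a synaptic protein translated at active spines, had 68.8 and 51.6, with a q of 0.0163 in the authors' deposited table. The member that rose was Nr4a3, an orphan nuclear receptor, from 4.56 to 7.38 (0.59). Egr1, the most abundant member, had 99.3 and 79.8 without passing (q = 0.110), and Fos had 20.8 and 18.2 (q = 0.589 in the authors' deposited table). Among 13 genes of the serum response factor and the ternary complex factors none was called, and their median was -0.09. Srf itself read 17.8 and 17.5 (q = 0.978 in the authors' deposited table).

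A few daily-rhythm genes fell. Of 21 core clock genes 3 fell and none rose, with a median of -0.14. Dbp, an output factor of the clock, fell from 104.9 FPKM to 69.2, Gm129, a clock repressor, from 15.8 to 10.4, and Npas2, a partner of Bmal1, from 15.9 to 11.4. Arntl, which encodes Bmal1, read 11.8 and 11.99 and was not called. The time of day of tissue collection is not given in the sources used.

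Lower calls were also found among myelin genes. Of 30 genes of mature oligodendrocytes 12 fell, none rose and 18 did not pass, and 29 had lower values, with a median change of -0.33. Aspa, the aspartoacylase that supplies acetate for myelin lipids, fell from 31.1 FPKM to 17.1 (-0.83). Car2, a carbonic anhydrase, read 181.8 and 110.2, Cldn11, the tight-junction protein of myelin, 135.6 and 82.4, and Mal, a myelin proteolipid, 169.8 and 105.01. Mbp, myelin basic protein and the most abundant gene of the list, read 2654 and 1852 and did not pass (q = 0.604 in the authors' deposited table). Among 13 genes of oligodendrocyte precursors none was called, and the median was 0.01. Subtracting the change of genes of like length left the myelin median at -0.33.

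The same myelin list was called lower in 3 of 30 cases in R6/1 at 8 weeks, with a median of -0.20, and higher in 2 of 30 at 10 weeks, with a median of 0.18. Aspa read 22.5 FPKM in wild type and 19.7 in R6/1 at 8 weeks, and 27.2 and 22.5 at 10 weeks. The R6/1 comparison at 8 weeks called 867 of 14105 genes (6.15%), 113 higher (0.801%) and 754 lower (5.35%). That at 10 weeks called 420 of 12963 (3.24%), 94 higher (0.725%) and 326 lower (2.51%). None of the 30 genes passed the test of the difference between CHL2 and R6/1 at 8 weeks described further on. That test is strict with the errors used, so this does not show that the changes were alike.

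Other glia and vessels gave few or no calls. Of 24 astrocyte genes, 27 microglial and complement genes and 13 precursor genes none was called. The microglial median was -0.18, with 24 of 27 values lower, and C1qb, a complement component, read 77.6 FPKM and 62.6 (q = 0.155 in the authors' deposited table). Of 30 endothelial and mural genes 1 fell, Vwf, the von Willebrand factor of vessel lining (3.09 and 2.21). Of 41 interferon-stimulated genes and 25 genes of class I antigen presentation none was called. Cd74, the class II invariant chain, rose from 2.65 to 4.59 with a q of 0.0466 in the authors' deposited table, the only call among 9 class II genes. Of 6 blood genes 2 fell, Hbb-b1, a beta-globin, from 36.5 to 16.3 and Alas2, the heme synthesis enzyme of red cells, from 3.35 to 1.41.

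Genes of the hypothalamus had more calls higher than any other list, again among lists chosen with earlier results of these data known. Of 29 listed genes found in the table, 15 rose and none fell, with a median change of 0.53, and subtracting the change of genes of like length left it at 0.54. With 0.1 or 5 added to the FPKM in place of 1 the median was 0.72 or 0.24. Pmch, the precursor of melanin-concentrating hormone, rose from 3.07 FPKM to 53.2 (change 3.74), the largest rise of any called gene. Trh, the precursor of thyrotropin-releasing hormone, rose from 7.60 to 20.8, Oxt, the oxytocin precursor, from 15.3 to 35.0, and Gal, the galanin precursor, from 3.44 to 8.28. Irs4, an insulin receptor substrate, rose from 1.32 to 3.53, and Otp and Fezf1, homeobox and zinc finger factors of the developing hypothalamus, from 0.425 to 1.25 and from 0.3998 to 1.36. Members that were not called include Hcrt, the hypocretin precursor, with the largest positive change of all genes (3.92): it read 0.141 and 16.3 and missed with a q of 0.0645 in the authors' deposited table. Avp, the vasopressin precursor, had the highest wild-type level of the list, with 38.4 and 42.03 (q = 0.867 in the authors' deposited table).

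Lists of other neighbouring tissue moved less. Of 20 septal, preoptic and basal forebrain genes 5 rose and none fell, with a median of 0.21, Zic1 and Zic2, zinc finger factors, among them (9.13 and 12.98, and 5.02 and 8.36 FPKM). Of 19 thalamic and pallidal genes 4 rose, with a median of -0.01, and Slc17a6, a vesicular glutamate transporter, went from 8.64 to 13.7. Among 24 cortical excitatory neuron genes 1 rose and 1 fell. Among 22 amygdala, claustrum and hippocampal genes 4 rose and 2 fell, with a median of 0.15. Among 18 fibroblast genes of meninges and vessels 1 rose, Dcn, the proteoglycan decorin, from 4.41 to 13.9 (1.46), which is also in the imprinted list. The part of neighbouring tissue in any of these rises was not tested.

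The hypothalamic list also stood higher in R6/1 at 10 weeks, with 14 of 26 genes called higher and a median of 1.19. At 8 weeks 4 of 26 were called higher and 1 lower, with a median of 0.18. Of the lists of other tissue around the striatum, 4 stood higher at 10 weeks too, with no member called lower. Called higher were 9 of 19 choroid plexus and ependymal genes (median 1.24) and 7 of 17 thalamic and pallidal genes (0.51). So were 4 of 17 meningeal and perivascular fibroblast genes (0.94) and 4 of 14 septal, preoptic and basal forebrain genes (0.19). Other lists did not stand higher. Of 24 cortical excitatory neuron genes 10 were called lower at 10 weeks and none higher (median -0.73). Of 22 amygdala, claustrum and hippocampal genes 3 were called higher and 3 lower (median -0.12). At 8 weeks 10 of the 19 choroid plexus and ependymal genes were called lower and none higher, with a median of -0.79, and in CHL2 none of the 19 was called, with a median of -0.02. The part of this tissue in the hypothalamic values was not tested. In the authors' deposited tables the log2 fold change of Oxt was 1.19 in CHL2, 1.22 at 8 weeks without passing (q = 0.277) and 2.81 at 10 weeks. That of Trh was 1.46 in CHL2, -0.40 at 8 weeks (q = 0.585) and 1.93 at 10 weeks in the authors' deposited tables.

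**Figure D3:**
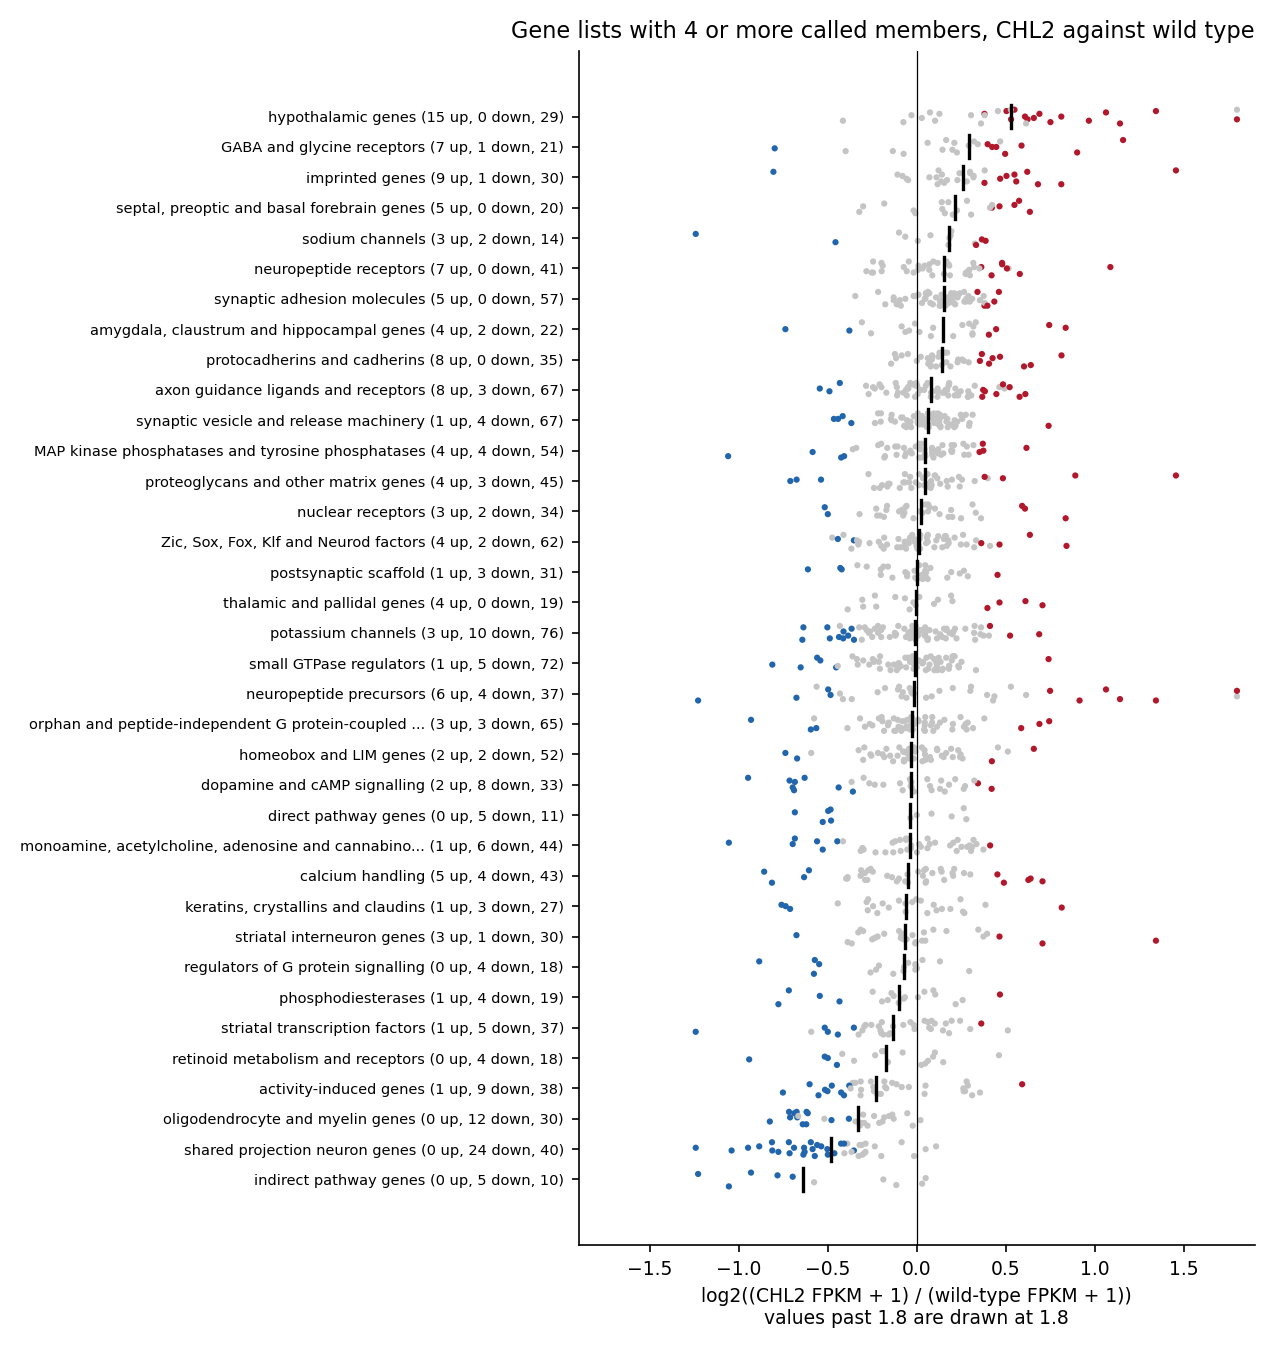
Change of each gene (points) in the lists with 4 or more called members, with the list median as a black bar. Red and blue points were called higher and lower, the brackets give the calls and the genes tested, and the medians run from -0.64 for the indirect pathway to 0.53 for hypothalamic genes.

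Imprinted genes, expressed from 1 parental copy, rose in 9 of 30 cases and fell in 1, with a median of 0.26. Of the list, 4 are also in the hypothalamic list: Calcr, Dlk1, Magel2 and Peg10. Magel2, a ubiquitin ligase regulator, rose from 2.83 FPKM to 5.73, and Asb4, a ubiquitin ligase subunit, from 0.595 to 1.56. Zdbf2 rose from 5.19 to 8.12 and Plagl1, a zinc finger factor, from 8.44 to 12.1. Ndn, which encodes necdin and neighbours Magel2 on chromosome 7, went the other way, from 229.8 to 131.1 (-0.81). Nearby genes of the same imprinted domain thus held changes of opposite sign.

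Neuropeptide precursors moved both ways. Of 37 precursors found, 6 rose and 4 fell. The 4 that fell are in striatal lists: Penk, Tac1 and Pdyn of projection neurons, given above, and Npy of interneurons, from 167.1 FPKM to 104.2. Of the 6 that rose, Pmch, Trh, Oxt and Gal are in the hypothalamic list, which holds 10 of the 37 precursors. Trh is also in the striatal interneuron list, where 3 of 30 genes rose and 1 fell. The others were Adcyap1, the PACAP precursor (2.63 and 5.85), and Grp, the gastrin-releasing peptide precursor (3.25 and 6.15). Sst, the somatostatin precursor and the most abundant interneuron gene listed, read 505.4 and 392.2 (q = 0.0549 in the authors' deposited table).

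Receptors for peptides had calls in 1 direction. Of 41 neuropeptide receptors 7 rose, none fell and 34 did not pass, with a median of 0.15 and lower values in 11. Trhr, the receptor for thyrotropin-releasing hormone, rose from 1.804 FPKM to 4.96 (1.09), Sstr1, a somatostatin receptor, from 6.31 to 9.93, and Npy2r, a neuropeptide Y receptor, from 5.68 to 8.31. Oxtr, the oxytocin receptor, rose from 2.11 to 3.33. The levels are low, and the most abundant member, the neurotensin receptor Ntsr2, read 78.3 and 68.5 and was not called.

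Inhibitory receptors included several that rose. Of 21 GABA and glycine receptor genes 7 rose and 1 fell, with a median of 0.29. Gabra2, the alpha-2 subunit of the GABA-A receptor, rose from 17.1 FPKM to 39.4 (1.16). Glra3 and Glra2, glycine receptor subunits, rose from 2.55 to 5.64 and from 10.03 to 14.03. Gabrd, the delta subunit of extrasynaptic receptors, fell from 64.6 to 36.7 (-0.80). Gabra2 lies on chromosome 5 (mm9 71352295 to 71487088) in a cluster with 3 other subunit genes, of which Gabrg1 rose from 11.4 to 15.4 and Gabrb1 from 14.4 to 19.7. Gabra4, which lies between Gabra2 and Gabrb1, read 46.6 and 42.4 (q = 0.712 in the authors' deposited table). In R6/1, Gabra2 read 22.2 in wild type and 20.5 at 8 weeks, and 20.1 and 19.8 at 10 weeks.

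Excitatory and monoamine receptors divided differently. Of 33 ionotropic glutamate receptor genes 3 rose and none fell: the NMDA receptor subunits Grin2b (7.46 and 10.6 FPKM) and Grin3a (6.93 and 10.5) and the AMPA receptor regulator Shisa6 (3.28 and 4.87). In R6/1 at 8 weeks 12 of the 33 fell and none rose. Grin1, the obligatory NMDA subunit, read 172.1 and 163.1 in the 1-year pools (q = 0.909 in the authors' deposited table). Of 44 receptors for monoamines, acetylcholine, adenosine and cannabinoids 6 fell and 1 rose. Beside Adora2a, Drd2, Drd1a and Chrm4, those that fell were Adra2c, an adrenergic receptor (21.3 and 14.1), and Hrh3, a histamine receptor (67.2 and 49.04), while Adra2a rose from 5.15 to 7.18.

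Among ion channels, more potassium channels were called lower than higher. Of 76 potassium channel genes 10 fell and 3 rose, with a median of -0.01. Kcnj4, an inward rectifier, read 92.1 FPKM and 58.6, Kcnh4, a voltage-gated channel, 12.3 and 7.59, and Kcnab1, an auxiliary subunit, 124.9 and 87.9. Kcng1, a modifier subunit, rose from 8.89 to 14.9. Of 14 sodium channel genes 2 fell and 3 rose, the auxiliary subunit Scn4b among those that fell and the pore-forming Scn7a (0.712 and 1.16) and Scn9a (1.46 and 2.22) among those that rose. The transient receptor potential channels Trpc4 (4.57 and 7.30) and Trpc5 (2.46 and 4.23) rose.

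Among adhesion genes 2 lists had higher calls and no lower ones. Of 35 protocadherins and cadherins 8 rose and 27 did not pass, with a median of 0.14, and of 57 synaptic adhesion genes 5 rose and 52 did not pass, with a median of 0.15. Pcdh20, Pcdh19 and Pcdh8, protocadherins that sort contacts between neurons, rose from 3.82 FPKM to 7.47, from 4.66 to 7.84 and from 12.2 to 19.1. Cntnap5a, a contactin-associated protein, rose from 7.12 to 10.2. Of 67 axon guidance genes 8 rose and 3 fell. Slit1 and Slit2, secreted repellents, rose from 10.9 to 17.2 and from 3.42 to 5.18, while Sema7a, a membrane semaphorin, fell from 37.1 to 25.1. Genes of these families have long transcripts, with list medians from 5095 to 5647 bases against 3409 for all genes, and after subtracting the change of genes of like length the 3 medians were 0.09, 0.08 and 0.00.

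Across genes, change followed transcript length (Spearman 0.39 over 14136 genes, which are not independent). With genes in 10 bins of equal size by length, the median change ran from -0.13 in the shortest bin to 0.12 in the longest. In the longest bin 80 genes rose and 14 fell, and in the shortest 6 rose and 32 fell. Genes that rose had a median length of 5120.5 bases and those that fell 2849. What part this trend has in the single calls was not tested.

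**Figure D4:**
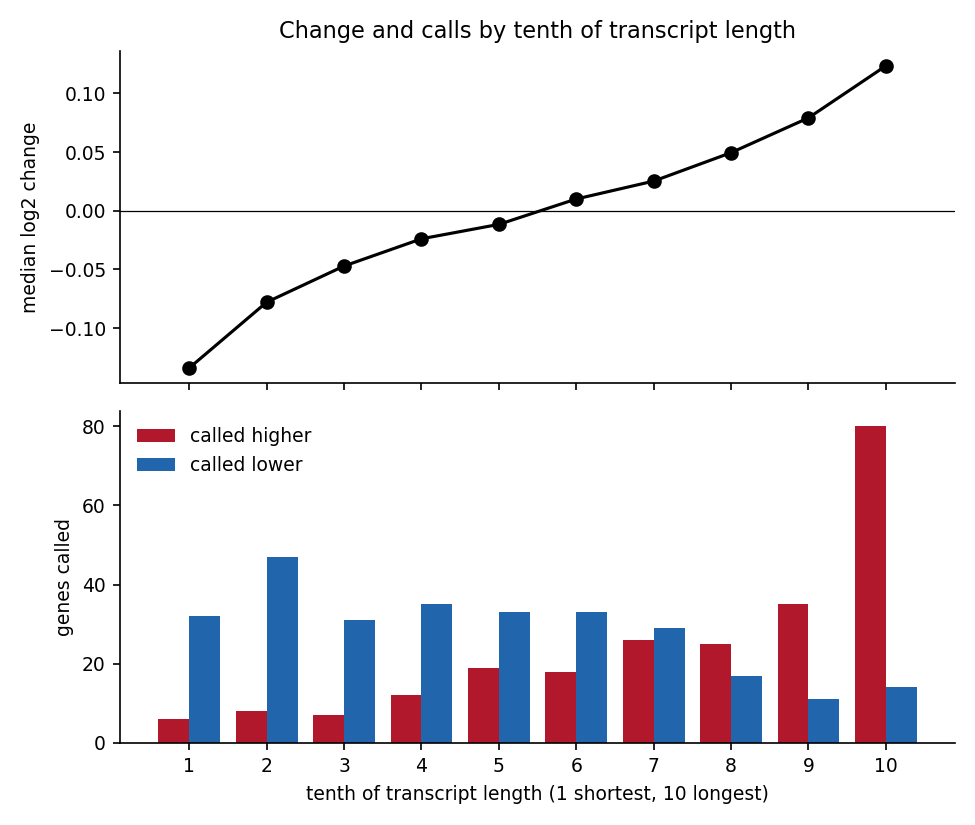
Median change (upper panel) and numbers of called genes (lower panel) in 10 bins of transcript length, from 1 (shortest) to 10 (longest). The median rises from -0.13 to 0.12, and the longest bin holds 80 of the genes called higher.

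Short, abundant housekeeping transcripts had lower values with few calls. Of 79 cytosolic ribosomal protein genes 64 had lower values and 3 fell, with a median of -0.22, and Rpl38 read 69.9 FPKM and 46.1. Subtracting the change of genes of like length moved this median to -0.09. Of 37 genes of respiratory complex I 1 fell, Ndufs7 (155.1 and 119.7), with a list median of -0.21, or -0.12 after that subtraction. Among 28 genes of complexes II to IV 2 fell, Cox6a1 (867.4 and 647.9) and Uqcrq (234.4 and 179.5). None was called among 16 ATP synthase genes, 33 genes of glycolysis and the tricarboxylic acid cycle, 46 proteasome subunits, 65 autophagy and lysosome genes, 67 histone-modifying enzymes and 76 mitochondrial ribosomal protein genes. Of 82 heat shock proteins and chaperones 1 rose, Hspa1b, an inducible Hsp70 (2.06 and 3.68). Hspa8, the constitutive relative and the most abundant of the list, read 154.3 and 159.5 (q = 0.9496 in the authors' deposited table).

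Several genes with the largest fold changes or shifts in level stand outside these groups. Upward in the authors' deposited table were Krt2, a keratin (log2 fold change 1.81, 0.435 to 1.53 FPKM), Vgll3, a transcription cofactor (1.78), and Myoc, encoding myocilin (1.39). Hap1, the huntingtin-associated protein, rose from 125.3 FPKM to 168.1, and Timp2, an inhibitor of matrix proteases, from 143.9 to 192.4. Of 29 genes of huntingtin and its interactors Hap1 alone was called. Downward in the authors' deposited table were Gpx6, a glutathione peroxidase (-2.21, 5.21 to 1.13 FPKM), Tmprss6, a serine protease (-1.96), Slc4a11, a membrane transporter (-1.81), and Ptprv, a tyrosine phosphatase (-1.32). Gh, growth hormone, was listed at 1.18 FPKM in wild type and at 0 in CHL2. Ckb, brain creatine kinase, read 488.6 and 327.5, and Mt1, a metallothionein, 508.7 and 355.01. Beta-s, a globin row that shares its position with Hbb-b1, read 260.1 and 114.4.

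By chromosome, the X had the highest share of calls. Of its 500 genes 31 rose and 2 fell (6.60% called), against 1.97% to 4.80% on the other chromosomes. On the autosomes 209 of 13790 genes rose (1.52%) and 281 fell (2.04%). Of all X genes 355 (71.0%) had higher values in CHL2, against 49.8% of autosomal genes, and the median change was 0.10 on the X and -0.00071 on the autosomes. Genes of the X are close to others in length, with medians of 3488 and 3406 bases, and after subtracting the change of genes of like length the X median was 0.08. Irs4, given above, had the largest change. Other X genes that rose were Gpr101, an orphan receptor (5.73 and 10.3 FPKM), Arhgap36, a GTPase-activating protein family member (3.21 and 6.04), Pcdh19, Trpc5, and the GABA-A subunits Gabrq (1.85 and 3.29) and Gabre (0.433 and 1.02). Outside the 3 X genes of the hypothalamic list, 29 of 497 rose (5.84%).

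The X pattern was chosen for description after its values were seen. Usp9x, Sytl4, Fam70a and Igsf1, named for the same reason, read 16.9 and 22.1 FPKM, 1.006 and 2.51, 17.2 and 30.2, and 5.01 and 8.32, and all 4 rose. X genes known to escape inactivation were not called: Ddx3x read 60.3 and 61.7, Kdm6a 8.61 and 8.90 and Kdm5c 11.7 and 13.3. Y-linked genes were present in both pools at like levels, Ddx3y at 18.99 and 21.8 and Eif2s3y at 28.8 and 25.5, with none of 4 called. Of the 31 X genes that rose, 29 were listed at 8 weeks, where 28 had higher values in R6/1. There 9 were called higher, beside 0.801% of all genes. At 10 weeks 28 were listed, 27 had higher values and 9 were called higher, beside 0.725% of all genes. The share of all genes, or of all X genes, with higher values in R6/1 is not given here. The counts of higher values therefore have no background beside them. Of 4 genes of X inactivation and the Y, 2 were called lower in R6/1 at 10 weeks, with a median of -1.94. At 8 weeks none of the 4 was called, with a median of 0.21. The part of sex in the X values, or in other values of the 10-week comparison used above, was not tested.

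Around Htt, where the allele itself sits, the share of genes called lay below or above that elsewhere depending on the window. Within 10 Mb 3 of 136 genes were called (2.21%), on the rest of chromosome 5 28 of 760 (3.68%) and on all other chromosomes 492 of 13400 (3.67%). The 3 genes all fell: Zfyve28, an endosomal signalling regulator (23.1 and 16.0 FPKM), Adra2c (21.3 and 14.1) and Wfs1, encoding the endoplasmic reticulum protein wolframin (90.3 and 69.3). Within 20 Mb 9 of 222 genes were called (4.05%), 5 lower and 4 higher, against 22 of 674 (3.26%) on the rest of the chromosome.

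Set against R6/1 at 8 weeks, CHL2 had list medians closer to 0 for projection neuron and activity-induced genes. The shared projection neuron list had 36 of 40 lower there, with a median of -0.97, against 24 of 40 and -0.48 in CHL2. At 10 weeks 26 of the 40 were lower, with a median of -0.80. Activity-induced genes were lower in 25 of 38 cases at 8 weeks, with a median of -0.66, against 9 of 38 and -0.23 in CHL2. Penk had a log2 fold change of -1.85 at 8 weeks and -1.23 in CHL2, and Scn4b -2.12 and -1.25, in the authors' deposited tables. These list differences were not tested.

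Gene by gene, the difference of the log2 fold changes was tested with a 2-sided normal test, with errors taken as the fold change over the deposited test statistic and Benjamini-Hochberg adjustment over 14003 genes. It passed for 6 genes (0.0428%), 4 more positive in CHL2 and 2 more negative, while 235 had an unadjusted p below 0.05. If no gene differed, a share of 0.05 would fall below that p, and 235 of 14003 is less. With these errors the test is therefore strict, and a gene that misses is not shown to have changed alike. Nov, a matricellular growth regulator, had a log2 fold change of 0.92 in CHL2 and -0.60 in R6/1 in the authors' deposited tables, a difference of 1.52 ± 0.29 (standard error; adjusted p = 0.00316). Egr2 had -0.69 and -3.15 in the authors' deposited tables (difference 2.46 ± 0.50, adjusted p = 0.00379). Gabra2 had 1.21 and -0.12 (1.33 ± 0.29, adjusted p = 0.0108), and Fosl2, an AP-1 component, 0.41 and -1.06 (1.47 ± 0.32, adjusted p = 0.0108), in the authors' deposited tables. Fosl2 was not called in CHL2 on its own (q = 0.0661 in the authors' deposited table). Ndn had -0.81 and 0.44 (-1.25 ± 0.26, adjusted p = 0.00688) and Beta-s -1.19 and -0.01 (-1.17 ± 0.23, adjusted p = 0.00318) in the authors' deposited tables.

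Other genes came near without passing with these errors. Nr4a3 rose in CHL2 and fell in R6/1 at 8 weeks, with log2 fold changes of 0.70 and -1.05 in the authors' deposited tables (difference 1.74 ± 0.42, adjusted p = 0.0562). Ryr1, a calcium release channel, had -1.01 and -2.30 in the authors' deposited tables (1.29 ± 0.33, adjusted p = 0.113). The count depends on the errors. With errors implied by the deposited p-values 85 genes passed, 77 of them more positive in CHL2 and 4 shared with the 6. With the statistic scaled to the deposited p-values, an alternative chosen after seeing the data, 204 passed, Nr4a3 and Ryr1 among them.

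**Figure D5:**
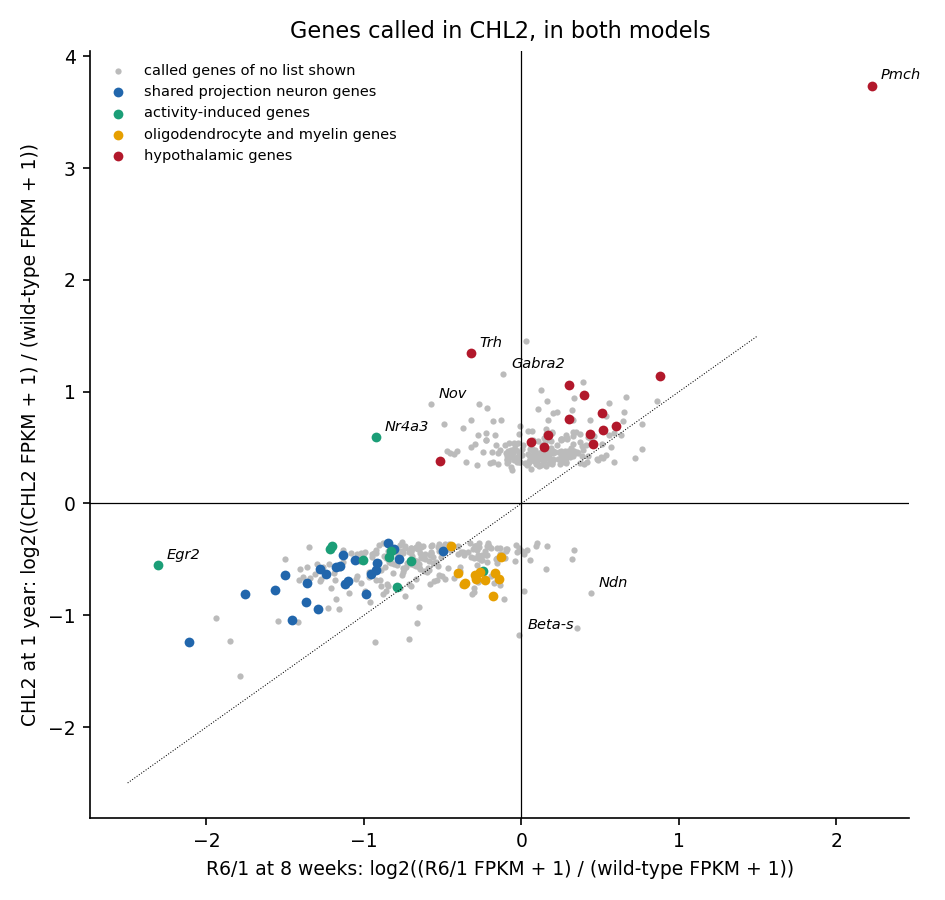
Change in CHL2 at 1 year (vertical axis) against change in R6/1 at 8 weeks (horizontal axis), both as log2 of the ratio of FPKM with 1 added, for genes called in CHL2 and listed at 8 weeks, with 4 lists in colour. The dotted line marks equal change, and Nov, Nr4a3 and Trh lie above 0 in CHL2 and below 0 in R6/1.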

How the data were processed

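RNA of mouse striatum was prepared with a TruSeq kit, per the labels' protocols. The submitters' processing notes name Bowtie, TopHat, Cufflinks and Cuffdiff, and mm9 as the genome; strandedness and gene annotation are not stated in them. The authors deposited 1 table per comparison with no header, of which 3 were used: pooled FPKM per group, a log2 fold change, a test statistic (a score), and a p-value and q-value. Deposited p-values come in steps of 5e-05. Depth per library is unknown. Small RNA rows held 10.4% of summed FPKM in wild type and 14.2% in CHL2, and 12.8% of kept genes share a listed position with another, so their reads may overlap; reads of paralogs such as globins and ribosomal proteins are likewise uncertain.

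Calls are the deposited q below 0.05. The 78 gene lists (2469 genes) and the genes described were chosen with earlier results of these data known. Named were Htt, Elk1 and Gfap; the 12 largest changes each way by fold and by FPKM; up to 6 called members each way and the most abundant member per list; other list members of mean FPKM 20 or more as values; genes near Htt; and the extremes of the difference test. A few genes that this rule names are not reported here. Transcript lengths are the longest per symbol in GENCODE M21, matched for 98.9% of genes. Promoters are from RefSeq. The deposited statistic ranked genes as the p-values did (Spearman 0.993), but the normal deviate of the p was 1.66 times it in the 1-year table, so errors from the statistic are larger. Python 3.11.15, pandas 2.3.3 and SciPy 1.17.1 were used. The difference test was tested on simulated data with noise drawn from the errors that the test assumes. Such data cannot show whether those errors suit the deposited values.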

Additional observations from a re-analysis of the deposited data

Results flagged for a closer look

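For 6 genes the change differed between CHL2 at 1 year and R6/1 at 8 weeks by the test of the difference of log2 fold changes (adjusted over 14003 genes). The difference, CHL2 minus R6/1, was 1.52 for Nov, 2.46 for Egr2, 1.47 for Fosl2, 1.33 for Gabra2, -1.17 for Beta-s and -1.25 for Ndn. Age and the wild-type animals differ between the 2 comparisons as well as the model, and these cannot be told apart. Strain background is not given and cannot be told apart from them either. With R6/1 at 10 weeks as the other model none of the 6 passed, and the differences were 1.16 for Nov, 1.56 for Egr2, 0.97 for Fosl2, 1.23 for Gabra2, -0.73 for Beta-s and -0.89 for Ndn, each in the same direction. Nov stood at 20.3 and 38.5 FPKM in the 1-year pools and at 30.7 and 20.3 in the 8-week pools. Ndn stood at 229.8 and 131.1 in the 1-year pools and at 97.2 and 132.1 in the 8-week pools, so the wild-type pools differ more than the mutant pools. The same holds for Beta-s, with wild-type values of 260.1 and 86.8 and mutant values of 114.4 and 86.0. Gabra2 differed mainly in CHL2, at 39.4 against 17.1, 22.2 and 20.5 in the other pools.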

How the results depend on the processing

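No paired analysis was possible because the tables hold 1 pooled value per group and no replicate numbers; leaving out replicates was not possible for the same reason. With a q below 0.01 in the authors' deposited table, 309 genes were called, 137 higher and 172 lower, and with a change of at least 0.5 also required 251, 99 higher and 152 lower. Without a low-value filter, with a mean FPKM of at least 2, at a q below 0.1 or without rows sharing a position, the count ran from 478 to 730, within 1.5 times 523. The difference from R6/1 at 8 weeks passed for 85 genes with errors implied by the deposited p-values. With the statistic scaled to those p-values, an alternative chosen after seeing the data, 204 passed. That scaling makes every error smaller, so the 6 genes had to pass again and this is no check of them. With R6/1 at 10 weeks as the other model the difference passed for 19, none of them among the 6. Egr2 and Beta-s did not pass with p-implied errors. Deposited p-values go no lower than 5e-05, which makes p-implied errors too large for genes with a larger statistic. Beta-s has that p in CHL2 with a statistic of -7.985 in the authors' deposited table. Egr2 has a log2 fold change of -3.15 in R6/1 at 8 weeks, with an error of 0.41 from the statistic. Their misses therefore do not show weaker evidence. The share near Htt was 2.68% and 4.05% with windows of 5 and 20 Mb, and the length correlation 0.43 and 0.38 with a minimum FPKM of 2 and a pseudocount of 0.1. Subtracting the change of genes of like length moved 16 of 78 list medians by 0.1 or more or, for medians within 0.1 of 0, across 0, against 0 to 4 under the other settings. No direction called in the deposited table could be checked against the spread of single libraries.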

Other observations

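Growth factor and structural lists, not described above, had the following calls, beside 3.66% of all genes. Of 62 FGF, IGF, TGF-beta, BMP and neuregulin genes 2 fell, Fgfr2, a fibroblast growth factor receptor (17.6 and 13.3 FPKM), and Igfbp4, an insulin-like growth factor binding protein (28.8 and 20.8), and 1 rose, Bmpr2, a BMP receptor (12.7 and 17.1). Nrtn, the precursor of neurturin, fell from 4.29 to 2.14, the only call among 18 neurotrophin and receptor genes. Among 53 Wnt and Notch genes 1 fell, Tcf7 (4.67 and 2.81). Of 27 keratins, crystallins and claudins 3 fell, the keratins Krt9 (12.04 and 6.70) and Krt10 (10.7 and 6.02) among them, and 1 rose, Krt2. Of 59 tubulin, neurofilament and microtubule genes 1 fell and 2 rose.

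Of 67 genes of synaptic vesicles and release 4 fell and 1 rose, Syt17, a synaptotagmin (9.83 and 17.1). Of 31 postsynaptic scaffold genes 3 fell, Ppp1r1a, a protein phosphatase inhibitor (68.8 and 44.7), Dlgap3 (115.7 and 85.7) and Baiap2 (158.3 and 117.95), and 1 rose, Homer2 (3.95 and 5.78). Of all 523 calls, 282 lie outside the 78 lists, 127 of them higher and 155 lower. One row with a far larger shift was not called: Pisd-ps1, a pseudogene, read 46.4 and 1.53 (q = 0.401 in the authors' deposited table).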
